A study of Sus scrofa with 6 samples.

Results

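miR-146a-5p, miR-146b and miR-155-5p are the 3 listed miRNAs, of 245 distinct entries with 238 sequences, that carry the names miR-146a, miR-146b or miR-155. They were chosen by name, with earlier results of these data known, from the sheet whose columns match the sample labels. The sheet holds small RNA sequencing of 3 milk samples and 3 samples of exosomes, membrane vesicles collected from milk, all from Rongchang pigs. The labels name no treatment, lactation stage, age or genotype, and it is not stated whether a milk and an exosome sample of the same number share an animal. The p-values below thus reflect only how these samples vary. The series sets the miRNAs of milk against those of its exosomes. The design text also mentions small intestine of piglets, which no sample label names, so the material is known only from the labels.

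A miRNA is a short RNA that guides repression of messenger RNAs, mainly through pairing of its seed, bases 2 to 8. In human and mouse cells, NF-kappaB induces miR-146a, which represses the Toll-like receptor adaptors TRAF6 and IRAK1 and so dampens the signal that induced it. miR-155 is induced in activated macrophages and lymphocytes and represses SOCS1 and INPP5D, which restrain inflammatory signalling. No messenger RNA was measured, so nothing here bears on these targets.

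The deposited sequences are shown because they set which of the 3 miRNAs share a seed. They are given 5′ to 3′ as DNA letters, with the seed in capitals.
miR-146a-5p: tGAGAACTgaattccatgggtt
miR-146b: tGAGAACTgaattccataggct
miR-155-5p: tTAATGCTaattgtgataggggt
miR-146a-5p and miR-146b have the same seed, and no other of the 238 listed sequences has it at these positions. The seed of miR-155-5p was found in no other listed sequence. The entries of miR-146b and miR-155-5p carry the suffix R+1 in the file, and that of miR-146a-5p carries none.

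Outside the seed, the miR-146 pair differs near the 3′ end, which is what tells the reads of one from those of the other. The same sequences are repeated with the differing bases in capitals.
miR-146a-5p: tgagaactgaattccatGggTt
miR-146b: tgagaactgaattccatAggCt
Counted from 1 at the 5′ end, with the base of miR-146a-5p first, the differences are G18A and T21C, and the other 20 of 22 bases are identical. Because only 2 bases tell them apart, the authors' read assignment could exchange reads between them. Ungapped from the 5′ end, the closest listed sequence outside the 3 differed from each at 10 positions or more. No member shares its exact sequence with another entry. In the RefSeq annotation of Sscrofa11.1 the 3 genes lie on different chromosomes. The neighbouring protein-coding genes are ATP10B and PTTG1 for MIR146A, CUEDC2 and LOC102167427 for MIR146B, and NCAM2 and MRPL39 for MIR155.

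Values are the authors' normalized abundance, and the number of reads behind each was estimated by taking the most frequent value above 0 in a library as 1 read. Smaller values were also listed, such as 0.0380 in milk 1 and 0.0468 in milk exosome 3, where 1 read is 0.0759 and 0.0937. The unit is thus not the smallest step, and read numbers of the 3 miRNAs are estimates, rounded down. By this estimate milk 1 and milk exosome 3 held 9124580 and 8020867 reads of listed miRNAs, and the other 4 libraries 1901 to 9313. These 2 deep libraries, 1 in each group, also stood apart in content. The erythrocyte list (miR-16, miR-144, miR-363, miR-451 and miR-486) held 90.5% and 89.9% of their listed signal, against 2.92% to 12.5% in the shallow libraries. The list's signal differed in make-up between libraries. In the deep libraries most of it was miR-451, at 574940 and 612167. In milk exosome 1 most was miR-16 (3130), with miR-451 at 36.0. In milk exosome 2 most was miR-486 (2084), with miR-451 at 19.7, the value of 1 read. miR-144 was at 0 in both. miR-144 and miR-486 are named after their values were seen. Over the tested miRNAs, the deviations of milk 1 and milk exosome 3 from their group means had a correlation of 0.85, the highest of the 9 pairs of a milk and an exosome library. With 1 such library in each group, this correlation is not independent of the gap in depth and content. Wrong group labels of these 2 libraries were not tested and cannot be told apart from that gap here. They would change what the milk and exosome values of both groups mean. Fold changes, share differences and list medians are also given for the 4 shallow libraries alone, 2 per group. The part of red blood cell RNA and of depth in the results below was not tested.

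miR-146a-5p was detected in all 6 libraries. Its normalized abundance was 188 in milk 1, 71.7 in milk 2 and 55.3 in milk 3. It was 108 in milk exosome 1, 19.7 in milk exosome 2 and 199 in milk exosome 3. The groups overlapped, and in each group the deep library was the highest. The estimated reads behind these values were 2474, 5 and 4 in milk and 12, 1 and 2127 in exosomes, so the 4 shallow values rest on at most 12 reads.

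miR-155-5p was also detected in all 6 libraries, at a lower level. Its normalized abundance was 40.9, 14.3 and 13.8 in milk 1, 2 and 3, and 27.0, 19.7 and 73.0 in milk exosome 1, 2 and 3. The groups overlapped, and the deep library was again the highest of each group. In milk 2, milk 3 and milk exosome 2 the value was that of a single read, 14.3, 13.8 and 19.7. The differences among these 3 values are those of the worth of 1 read, not of the number of reads. The deep libraries held 538 and 779 reads, and milk exosome 1 held 3.

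miR-146b was close to the detection limit. It was listed at 0.570 in milk 1, at 0 in milk 2 and at 13.8 in milk 3, and at 9.01 in milk exosome 1, 0 in milk exosome 2 and 1.03 in milk exosome 3. Here the deep libraries were the lowest of those above 0. The values in milk 3 and milk exosome 1 are 1 read each, and those of the deep libraries 7 (7.5 before rounding down) and 11 reads. At 0, up to 3 reads are allowed, worth 43.0 in milk 2 and 59.0 in milk exosome 2, which is above every value measured elsewhere.

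**Figure D1:**
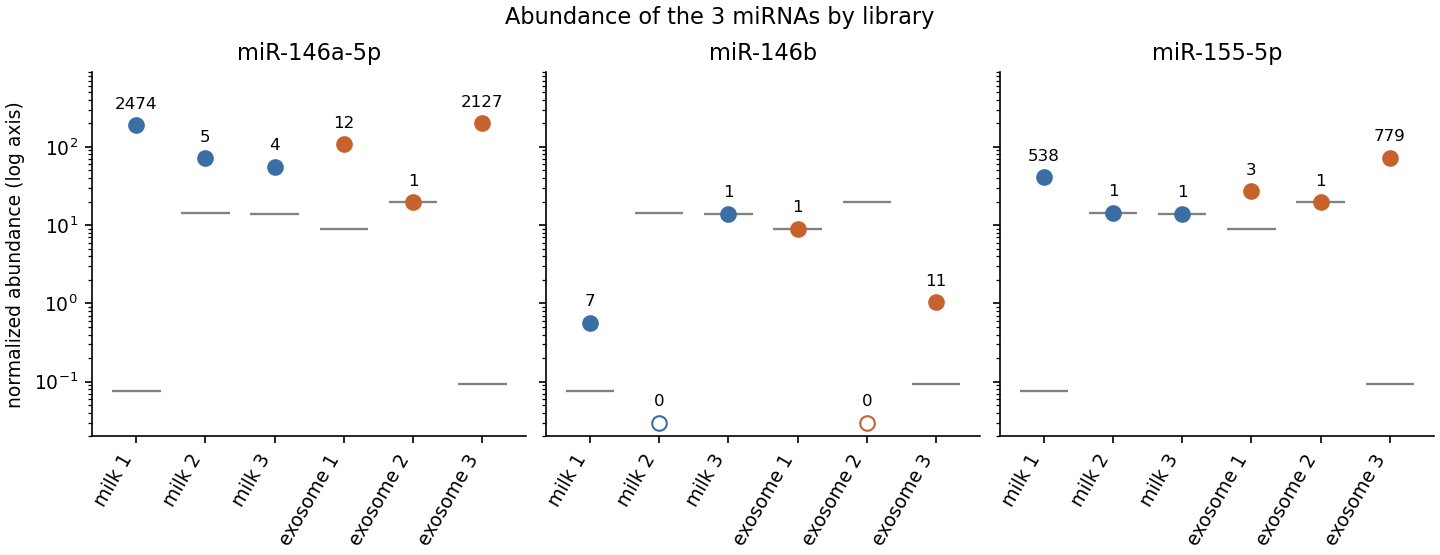
Normalized abundance (log axis) of each miRNA in the 3 milk libraries (blue) and 3 milk exosome libraries (orange), with the estimated reads beside each point, rounded down. Grey bars mark the value of 1 read and open circles a value of 0; in milk exosome 2 both miR-146a-5p and miR-155-5p sit on the bar.

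In order of level, miR-146a-5p was above miR-155-5p in 5 of 6 libraries and equal to it in milk exosome 2, where each had 1 read. The 3 sequences are 22, 22 and 23 bases long. The ratio of miR-146a-5p to miR-155-5p abundance was 4.6, 5 and 4 in milk 1, 2 and 3. It was 4, 1 and 2.73 in milk exosome 1, 2 and 3. Mean abundance of miR-146a-5p was 105 ± 72.3 (SD, n = 3) in milk and 109 ± 89.8 in exosomes, that of miR-155-5p 23.0 ± 15.5 and 39.9 ± 28.9, and that of miR-146b 4.80 ± 7.83 and 3.35 ± 4.93. The means of miR-146a-5p and miR-155-5p differed by more than the SD of either in milk but by less than the SD of miR-146a-5p in exosomes, and those of miR-155-5p and miR-146b by more than either SD in both groups. By rank among 238 sequences, miR-146a-5p was at 53 in both deep libraries and between 62 and 86 in the shallow ones. miR-155-5p ranked 87 in milk 1, 78 in milk exosome 3 and 86 to 130 elsewhere.

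For exosomes against milk, miR-146a-5p and miR-155-5p were tested, while miR-146b reached the required value of 10 in 1 library only. Neither passed the test. The log2 fold change, on the log2(value + 1) scale and as exosome minus milk, was -0.26 (SE 1.44, n = 3 per group, 95% interval -3.61 to 3.09) for miR-146a-5p. For miR-155-5p it was 0.72 (SE 1.53, 95% interval -2.82 to 4.27). The adjusted p in limma, with the Benjamini-Hochberg method over 141 tested entries, was 0.997 for each. Over all tested entries 0 of 141 (0%) passed, 0 had an unadjusted p under 0.05, and the median log2 fold change was 0.34. The intervals are wide enough that a change of 4-fold in either direction lies inside them, so the test does not show that the levels are alike. Non-overlapping groups were seen for 2 of 141 tested entries (1.42%) on the deposited values, and for neither miR-146a-5p nor miR-155-5p.

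The direction itself depended on single libraries and on scaling. miR-146a-5p stood at 0.26 without milk 1 and at 0.69 without milk exosome 2, and between -0.95 and -0.43 with any other library left out. It stood at -0.96 after rescaling to a common total, where the median of all tested entries moved to -0.29. After rescaling to the total outside the erythrocyte list it stood at -1.05, the farthest from 0 of the settings run, with the median at -0.39. miR-155-5p stood at 0.036 after the first rescaling and at -0.047 after the second. With 1 library left out its lowest value was 0.18, in the absence of milk exosome 3, and its highest was 1.21, in the absence of milk 1. In the 4 shallow libraries alone the values were -0.43 for miR-146a-5p and 0.67 for miR-155-5p (adjusted p = 0.974 each in limma).

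**Figure D2:**
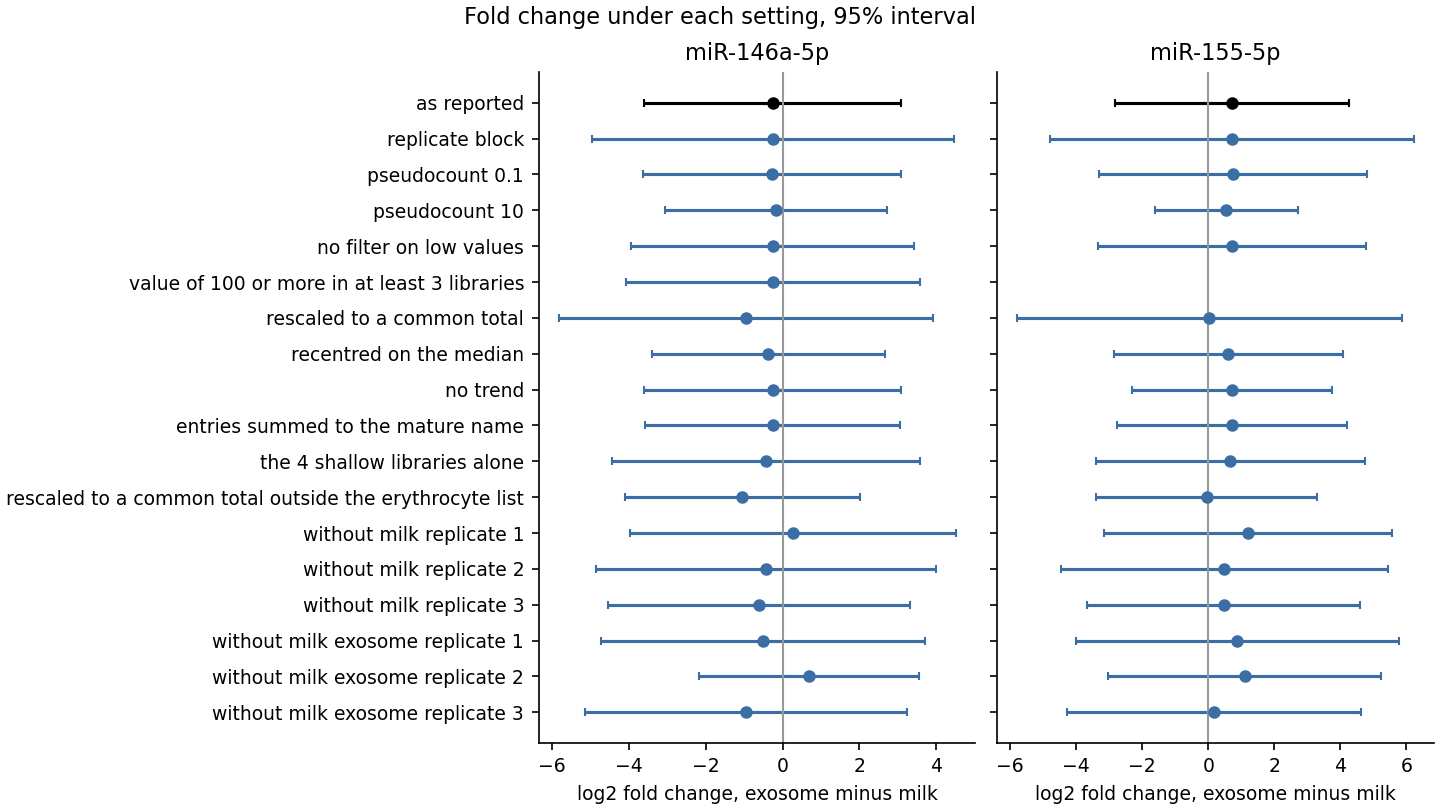
Log2 fold change of miR-146a-5p and miR-155-5p, exosome minus milk, with limma's 95% interval (bars), as reported (black) and under each other setting (blue). All intervals include 0; miR-155-5p has no point where a value of 100 or more was required in at least 3 libraries.

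As a share of the listed signal, miR-146a-5p was lowest in the deep libraries and in milk exosome 2. Intervals are exact Clopper-Pearson intervals at 95% on estimated reads and cover counting error only. miR-146a-5p held 0.0271% (0.0261% to 0.0282%) of milk 1 and 0.0265% (0.0254% to 0.0277%) of milk exosome 3. It held 0.115% (0.0373% to 0.268%) of milk 2, 0.210% (0.0574% to 0.538%) of milk 3 and 0.129% (0.0666% to 0.225%) of milk exosome 1. In milk exosome 2 it held 0.0256% (0.000648% to 0.142%). The intervals of milk 2, milk 3 and milk exosome 1 thus lay above those of both deep libraries, and that of milk exosome 2 covered them.

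Outside the erythrocyte list the order turned over. There miR-146a-5p held 0.284% (0.273% to 0.296%) of milk 1 and 0.264% (0.253% to 0.275%) of milk exosome 3. It held 0.131% (0.0427% to 0.307%) of milk 2 and 0.235% (0.0641% to 0.601%) of milk 3, whose intervals covered the deep values. In milk exosome 1 the share was 0.135% (0.0696% to 0.235%) and in milk exosome 2 it was 0.0263% (0.000667% to 0.147%), both with upper limits below the deep libraries.

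miR-155-5p differed between the deep libraries. It held 0.00590% (0.00541% to 0.00642%) of milk 1 and 0.00971% (0.00904% to 0.0104%) of milk exosome 3, with intervals that do not meet. Its shares in the shallow libraries rest on 1 to 3 reads, with 0.0230% in milk 2, 0.0526% in milk 3, 0.0322% in exosome sample 1 and 0.0256% in exosome sample 2. Only the interval of milk exosome 1 (0.00664% to 0.0941%) failed to reach down to the share in milk 1. Outside the erythrocyte list the intervals of all 4 shallow libraries covered the deep values of 0.0618% and 0.0966%.

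**Figure D3:**
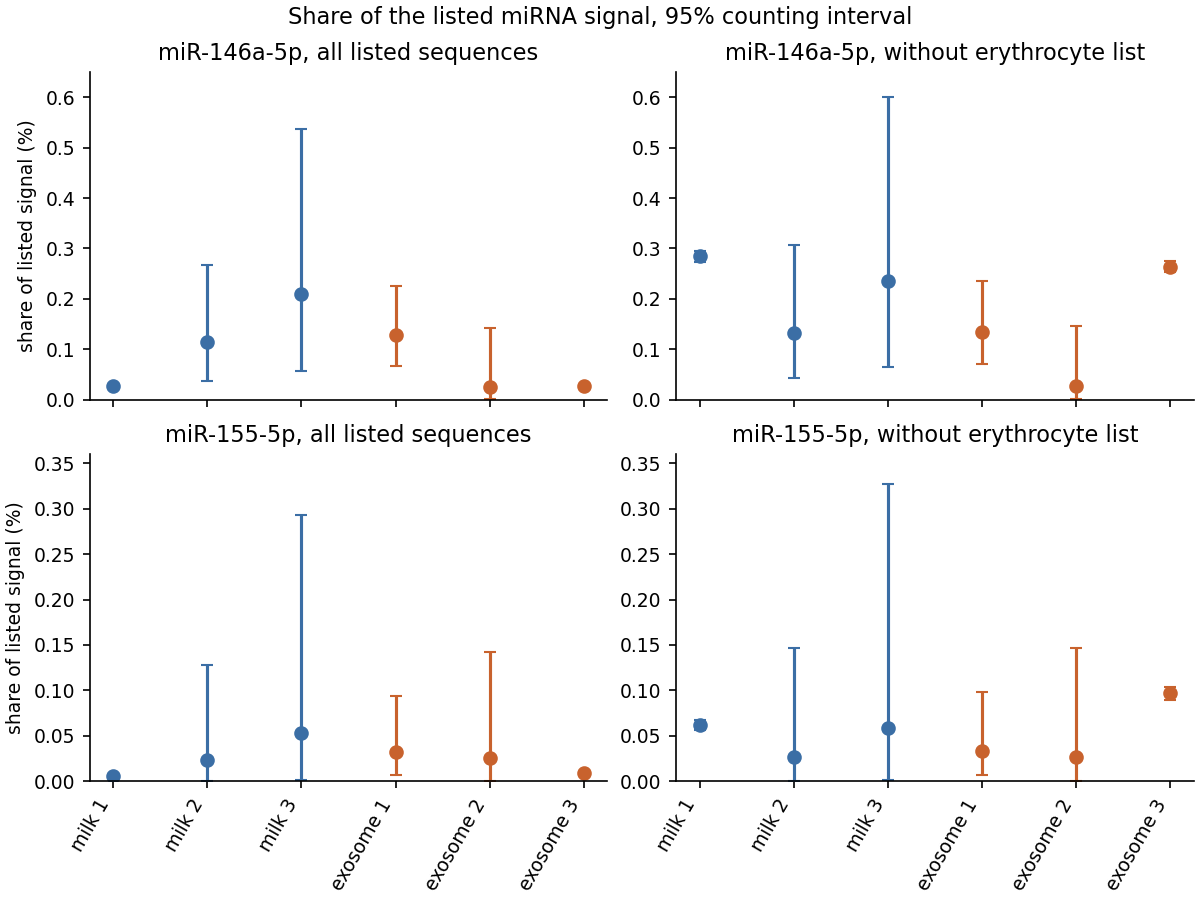
Share (%) of miR-146a-5p and miR-155-5p in the listed signal, with all listed sequences in the denominator (left) and without the erythrocyte list (right), for milk (blue) and milk exosome (orange) libraries. Bars are exact 95% counting intervals; the miR-146a-5p shares of the deep libraries move from 0.0271% and 0.0265% on the left to 0.284% and 0.264% on the right.

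Together the 3 miRNAs held 0.0331%, 0.138% and 0.316% of the listed signal in milk 1, 2 and 3. They held 0.172%, 0.0512% and 0.0364% in milk exosome 1, 2 and 3. The means were 0.162% ± 0.143 (SD, n = 3) in milk and 0.0864% ± 0.0743 in exosomes, and the groups overlapped (two-sided exact permutation p = 0.7, where 3 against 3 cannot go below 0.1). The difference of -0.0758 percentage points turned to 0.000893 without milk 3 and was -0.115 in the 4 shallow libraries alone (exact permutation p = 0.667, n = 2 per group). Outside the erythrocyte list the means were 0.286% ± 0.111 and 0.198% ± 0.155, also with a two-sided exact permutation p of 0.7. For the milk samples, the number of cells that make a miRNA and its level per cell cannot be told apart in bulk.

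Within their summed signal, miR-146a made up 81.9%, 83.3% and 66.7% in milk 1, 2 and 3 and 75.0%, 50.0% and 72.9% in milk exosome 1, 2 and 3. miR-155 made up 17.8% (16.5% to 19.2%), 16.7% (0.421% to 64.1%) and 16.7% (0.421% to 64.1%) in milk. In exosomes it made up 18.8% (4.05% to 45.6%), 50.0% (1.26% to 98.7%) and 26.7% (25.1% to 28.4%). Every exosome library thus lay above every milk library for miR-155, with means of 31.8% ± 16.2 and 17.0% ± 0.663 (SD, n = 3), and the two-sided exact permutation p of 0.1 is the smallest that 3 against 3 can give. The separation rests on 1 to 3 reads of miR-155 in the shallow libraries, whose intervals all cover the milk values. Only milk exosome 3 lay above milk 1 beyond counting error. Without milk exosome 2, where miR-155 is 1 of 2 reads, the difference of 14.8 percentage points was 5.68. The share of miR-146a differed by -11.3 percentage points (exact permutation p = 0.3) and that of miR-146b by -3.43 (exact permutation p = 0.9). In the 4 shallow libraries alone the differences were 17.7 percentage points for miR-155 (exact permutation p = 0.333, the smallest that 2 against 2 can give), -12.5 for miR-146a and -5.21 for miR-146b.

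**Figure D4:**
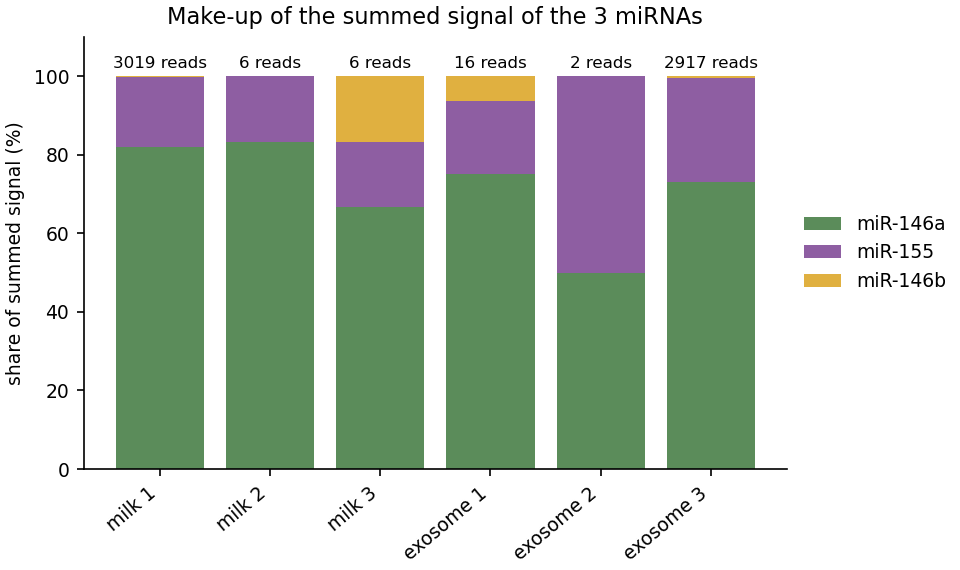
Share (%) of miR-146a, miR-155 and miR-146b in their summed signal for each library, with the estimated reads of all 3 above each bar. The 2 deep bars rest on 3019 and 2917 reads and the shallow ones on 2 to 16.

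Of the miR-146 pair, miR-146b was the minor partner wherever both were seen. It made up 0.302% (0.114% to 0.580%) of the pair's signal in milk 1 and 0.514% (0.257% to 0.919%) in milk exosome 3, and these intervals overlap. In milk 3 it was 1 of 5 reads (20.0%, 0.505% to 71.6%) and in milk exosome 1 it was 1 of 13 (7.69%, 0.195% to 36.0%). The interval in milk 3 began above the value of milk 1 but overlapped its interval, and the interval in milk exosome 1 covered both deep values.

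The deep libraries allow the finest comparison, of 1 library with 1 library and so with no replicate check. miR-146a-5p was 1.06 times as abundant in milk exosome 3 as in milk 1, a log2 difference of 0.085. miR-155-5p was 1.79 times as abundant, a log2 difference of 0.84, or 0.72 on shares of the listed signal. miR-146b, on 11 against 7 reads (7.5 before rounding down), had a log2 difference of 0.86. Among the 107 sequences that reached 100 reads in each of the deep libraries, the median log2 difference was 0.14, and 5% lay above 0.72. Only 2 of them, miR-19a and miR-19b, miR-19b being chosen once its values had been seen, lay above miR-155-5p, while 58 lay above miR-146a-5p. This compares 2 libraries, not milk with exosomes.

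**Figure D5:**
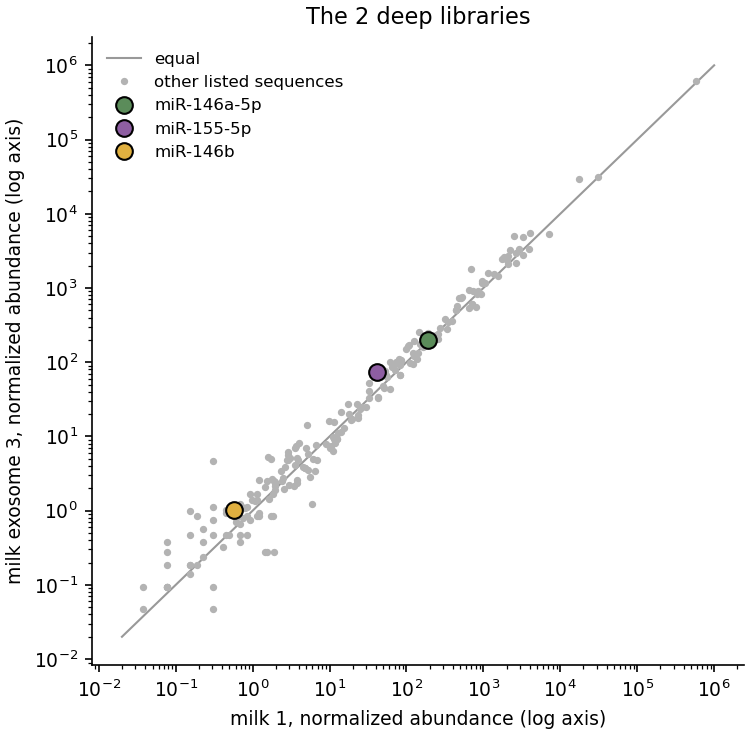
Normalized abundance of each listed sequence above 0 in milk 1 (x, log axis) and milk exosome 3 (y, log axis), with the line of equal values. miR-146a-5p lies near the line, and miR-155-5p above it at 40.9 and 73.0.

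Since 0 of all 141 tested entries passed, the test does not set apart the other miRNAs linked to NF-kappaB and Toll-like receptor signalling. Of 14 names, 11 were analysed, with 13 sequences tested. In limma 0 rose and 0 fell, 6 log2 fold changes were positive and 7 negative, and their median was -0.014, against 0.34 for all tested entries. miR-21, a miRNA of many cell types that is raised in inflammation, had the highest mean abundance of the list and stood at -0.17 on the log2 scale (SE 1.20), and miR-221-3p followed at -1.58 (SE 2.95). The list held 13.97% to 16.4% of the signal in milk 2, milk 3 and milk exosome 1, 4.26% in milk exosome 2, and 0.521% and 0.596% in the deep libraries. Outside the erythrocyte list it held 5.46% and 5.93% of the deep libraries and 4.39% to 17.2% of the shallow ones. In the shallow libraries alone 0 of 13, and 0 of all 141 tested entries, passed in limma. There the list's median log2 fold change was -0.11, against 0.39 for all tested entries.

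Leukocytes are known to express miR-146a and miR-155, so leukocyte miRNAs are given beside them. Of 4 names, 3 were analysed (miR-142, miR-150 and miR-342), as 4 sequences, and miR-223 was not listed. As over all 141 tested entries, 0 passed, and 1 had a positive and 3 a negative log2 fold change. Their summed share was 1.00% to 3.22% in milk and 0.256% to 1.80% in exosomes, with the deep libraries at 1.19% and 1.55%. Outside the erythrocyte list the deep libraries were the highest, at 12.5% in milk 1 and 15.4% in milk exosome 3, against 3.68%, 1.12%, 1.89% and 0.263% in milk 2, milk 3, milk exosome 1 and milk exosome 2. In the shallow libraries alone the list's median log2 fold change was -0.61, against 0.39 for all tested entries. Over all 6 libraries it was -0.23, against 0.34. miR-342, named after its values were seen, was listed at 0 in milk 2, and milk exosome 2 had the lowest share of the leukocyte list. Its share of miR-146a-5p, 0.0256%, rests on 1 read, with an interval that covers the shares of both deep libraries. miR-142-5p and miR-142-3p, the most abundant of the list, had log2 fold changes of -0.57 and -0.15. Their part in the values of miR-146a-5p and miR-155-5p was not tested.

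In the remaining lists, as over all 141 tested entries, 0 passed in limma. The median log2 fold change was -1.07 for 5 tested erythrocyte miRNAs, 1 positive and 4 negative, with miR-451 at -4.20 and miR-16 at -0.92. The positive one was miR-486, at 1.27 (SE 1.57). Of 9 epithelial names 5 were listed, without miR-141, miR-200a, miR-200b and miR-200c, and 3 entries were tested. Their median log2 fold change was -1.50, 1 positive and 2 negative, with miR-205 at 0.16 and miR-182 at -2.46. For 5 muscle miRNAs, all positive, it was 3.56, with miR-1 at 3.56 and miR-133a-3p at 3.73. For 6 miRNAs typical of milk, 3 positive and 3 negative, it was 0.12, with miR-21 at -0.17 and miR-148a-3p at -1.15. Of the names on that list, miR-200c was not listed in the data. In the shallow libraries alone 0 passed, as over all 141 entries, and the medians were -1.91, -2.43, 4.32 and 0.0034 in the same order. The median of all tested entries was 0.34 over the 6 libraries and 0.39 in the shallow ones. Muscle miRNAs held 55.1% of milk exosome 2, the library with 1 read each of miR-146a-5p and miR-155-5p, and 6.58e-05% to 10.5% of the other libraries.

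The miRNAs whose profile over the 6 libraries was most like that of each member were taken by Pearson correlation of log2(value + 1) among 137 or 138 tested sequences, as a description over libraries that share the gap in depth. For miR-146a-5p they were miR-92a (r = 0.99), miR-32 (0.99) and miR-19a (0.98). For miR-155-5p they were miR-335 (0.95), miR-103 (0.93) and miR-30c-5p (0.88). For miR-146b they were miR-491 (0.78), miR-183 (0.77) and miR-193a-5p (0.76), on values that are 1 read or 0 in the shallow libraries. There miR-155-5p rests on 1 to 3 reads and miR-146a-5p on 1 to 12, so their correlations also rest mainly on the deep libraries. miR-335 was at 0 in milk 2, milk 3 and milk exosome 2. miR-32 was at the value of 1 read in milk 2 and milk 3, and at 0 in milk exosome 2. All 6 profiles most like miR-146a-5p or miR-155-5p were highest in 1 of the deep libraries.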

How the data were processed

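Per the labels' protocols, total RNA was taken with Trizol and sequenced as TruSeq small RNA libraries in single-end reads. Each value is a signal, a miRNA abundance that the authors had normalized before it was deposited. Which aligner was used is not given in the sources used here, nor are the annotation and the method of normalization. Of 279 lines, 34 exact repeats were dropped. In another sheet 6 columns could not be tied to a sample by name and were not used. The members and lists were chosen with earlier results of these data known.

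The values are not counts, since 71.7% to 87.7% of those above 0 in a library were whole multiples of 1 read (tolerance 0.01 reads), so no count test was run. The main test was limma (version 3.58.1, R version 4.3.3) with eBayes trend on log2(value + 1). It took the 141 entries that reached 10 in 3 or more of the 6 libraries, with a threshold of 0.05. It was checked on simulated data with independent noise and no gap in depth between libraries. That check therefore does not cover the gap seen here. Shares were compared over samples by exact permutation tests with Python 3.11.15 and scipy 1.17.1. Without molecular identifiers, reads can be copies of one molecule, so intervals cover counting error only. Named miRNAs are the members, the 2 most abundant of each list and the 3 most like each member. Results of miR-19b, miR-144, miR-342 and miR-486 are also given, chosen after their values were seen. The labels do not state pairing, so the replicate numbers were not taken as pairs. Deviations of same-numbered libraries had correlations of -0.25, 0.39 and -0.48. Because the deep libraries carry different numbers, these values cannot show whether pairs exist.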

Additional observations from a re-analysis of the deposited data

How the results depend on the processing

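Over 17 other settings 0 entries passed in limma, and the adjusted p stayed between 0.912 and 0.999 for miR-146a-5p and miR-155-5p. With the replicate number as a block, the fold changes were the same, -0.26 and 0.72, with adjusted p = 0.997 in limma and 0 passing. The sign of miR-146a-5p reversed without milk 1 (0.26) and without milk exosome 2 (0.69), and with 1 library left out it ran from -0.95 to 0.69. miR-155-5p reversed to -0.047 after rescaling outside the erythrocyte list, a setting chosen after seeing the data, and ran from 0.18 to 1.21 with 1 library left out. It could not be tested with values of 100 or more required. The summed share difference ran from -0.140 to 0.000893 percentage points with 1 library left out. The differences within the summed signal ran from -16.7 to -3.35 for miR-146a, from -6.25 to 2.08 for miR-146b (positive without milk 3) and from 5.68 to 21.3 for miR-155. The cause was not tested. In the shallow libraries each member rests on 0 to 12 reads.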
